A study of Mus musculus with 6 samples.

Results

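The autophagy and mitophagy machinery examined here consists of 46 genes, taken from a list of symbols that covers autophagosome formation from the initiating kinase complex to the tethers that act before lysosomal fusion, together with cargo receptors and mitophagy factors. All 46 symbols were found among the 54146 genes counted in each library, and all 46 had enough reads to be among the 13755 genes tested. The 3 groups had 2 libraries each and were Ki-67 knockout (KO) clone 1 and KO clone 2, both Mki67-/-, and wild type (WT). All were 4T1 cells, an established carcinoma line of BALB/c mouse mammary epithelium, grown in high-glucose DMEM with fetal bovine serum. Each KO group was a single clone, so an effect of Ki-67 loss cannot be told apart from other differences between these cell lines. Nothing in the labels tells whether replicate libraries were made from separate cultures, so each p-value reflects spread among these libraries alone, which could be technical.

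Macroautophagy encloses cytoplasm in a membrane sac, the autophagosome, which then fuses with lysosomes. The ULK kinase complex starts the process, a class III phosphoinositide 3-kinase marks the growing membrane with its lipid product PI3P, and ubiquitin-like conjugation enzymes attach LC3 and GABARAP proteins to that membrane. Cargo receptors hold ubiquitinated proteins, organelles or microbes against LC3 and GABARAP, and mitophagy is the selective removal of mitochondria by this route. In tumour cells, autophagy is known both for limiting damage and for supplying nutrients under stress.

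The bases just before the start of a few of the genes that were lower in both clones are shown because they are part of the promoter sequence to which the motif counts given further on refer. Those counts used 300 bases per promoter, of which each stretch shown is only a part. The bases shown were taken from RefSeq (GRCm38.p6) and are written 5′ to 3′ on the strand of the gene. Capitals mark ACGTG or its reverse complement CACGT. Sqstm1 lies head to head with Mgat4b, and the 62 bases at chr11:50210828-50210889 (minus strand) lie between the annotated starts of these 2 genes. Those shown for Gabarapl1 are chr6:129532942-129533159 (plus strand), and those for Bnip3 are chr7:138909520-138909756 (minus strand).
Sqstm1: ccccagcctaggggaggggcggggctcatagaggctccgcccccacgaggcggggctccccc
Gabarapl1: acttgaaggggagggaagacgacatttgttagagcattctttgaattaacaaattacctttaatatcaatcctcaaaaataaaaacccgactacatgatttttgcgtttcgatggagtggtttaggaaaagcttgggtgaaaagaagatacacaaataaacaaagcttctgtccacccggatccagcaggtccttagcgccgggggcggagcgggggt
Bnip3: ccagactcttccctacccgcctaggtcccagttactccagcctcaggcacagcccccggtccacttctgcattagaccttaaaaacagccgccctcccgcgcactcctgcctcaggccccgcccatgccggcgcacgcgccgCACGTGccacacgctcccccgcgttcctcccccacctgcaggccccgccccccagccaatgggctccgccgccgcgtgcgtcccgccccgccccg

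The Bnip3 stretch held 2 overlapping matches on opposite strands, which together spell CACGTG, and the other stretches held no match. No match says only that these letters are not in the stretch shown.

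Gene reads per library came to 22597596 and 22658499 in KO clone 1, 17103941 and 22275937 in KO clone 2, and 10428970 and 16852152 in WT, so that 3 reads corresponded to 0.130 to 0.296 CPM, the unit used for levels below, which is a gene's count scaled by the size of its library. Mki67 itself read 85.8 and 103 CPM in KO clone 1 and 39.9 and 52.7 CPM in KO clone 2, against 736 and 647 CPM in WT. Of 9 epithelial markers, 8 were read in every library and Krt5 was at 0, with summed levels of 5728 to 6113 CPM in the KO libraries and 3897 to 4500 CPM in WT. Of 8 leukocyte markers, 3 to 5 were read in the KO libraries and 2 in WT, mostly Cd68 and Csf1r, while Cd3e and Adgre1 were at 0 in all and Ptprc at 0 in WT. Of 7 fibroblast markers, 2 or 3 were read in a library, nearly all of it Pdgfra, with Col3a1 and Lum at 0. Of 5 endothelial markers, 2 or 3 were read, nearly all of it Egfl7, with Cdh5 and Kdr at 0 and sums of 9.58 to 14.3 CPM in the KO libraries and 10.3 to 14.7 CPM in WT.

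Most of the machinery was expressed at a lower level in both clones than in WT, with the largest decreases in cargo receptors, GABARAP genes and Bnip3. Fold changes are log2 values, clone over WT, from the quasi-likelihood test of edgeR, with Benjamini-Hochberg adjustment over all genes tested, and a gene was called at an adjusted p under 0.05. In KO clone 1, 34 of the 46 genes were called (73.9%), 7 higher and 27 lower, where 50.9% of all genes tested were called, 24.7% higher and 26.2% lower. KO clone 2 had 39 called (84.8%), 8 higher and 31 lower, against 53.4% of all genes tested, 25.3% higher and 28.2% lower. For the mean of both clones, 38 were called (82.6%), 8 higher and 30 lower, against 56% of all genes, 26.6% higher and 29.4% lower. The median log2 fold change of the 46 genes was -0.49 in KO clone 1, -0.56 in KO clone 2 and -0.54 for their mean, while that of all genes tested was -0.01, -0.02 and -0.02.

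The comparisons of the clones with WT share the same WT libraries, so they are not independent of each other. Lower in both clones were 26 of the 46 genes (56.5%), where 20% of all genes tested were. Higher in both were 5 (10.9%), where 17.9% of all genes were, namely Ambra1, Wipi1, Wdr45b, Atg7 and Atg10. In 28 of the 46 (60.9%) all 4 KO libraries lay below both WT libraries, which held for 30.1% of all genes tested, and in 8 (17.4%) all 4 lay above, which held for 27.7%. In bulk RNA, fewer cells expressing a gene and less of its RNA per cell cannot be told apart. Summed leukocyte markers were 4.81 to 6.60 CPM in KO and 11.6 to 16.5 CPM in WT. The lower sum in KO came from Cd68, which averaged 2.74 and 2.82 CPM in KO clones 1 and 2, against 12.9 CPM in WT. Csf1r went the other way, at 2.22 and 3.12 CPM against 1.14 CPM, and Ptprc was read only in KO, at up to 0.118 CPM. Summed fibroblast markers, nearly all Pdgfra, were 14.5 to 14.7 CPM in KO and 39.4 to 39.5 CPM in WT. The part of these markers in the results was not tested.

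**Figure D1:**
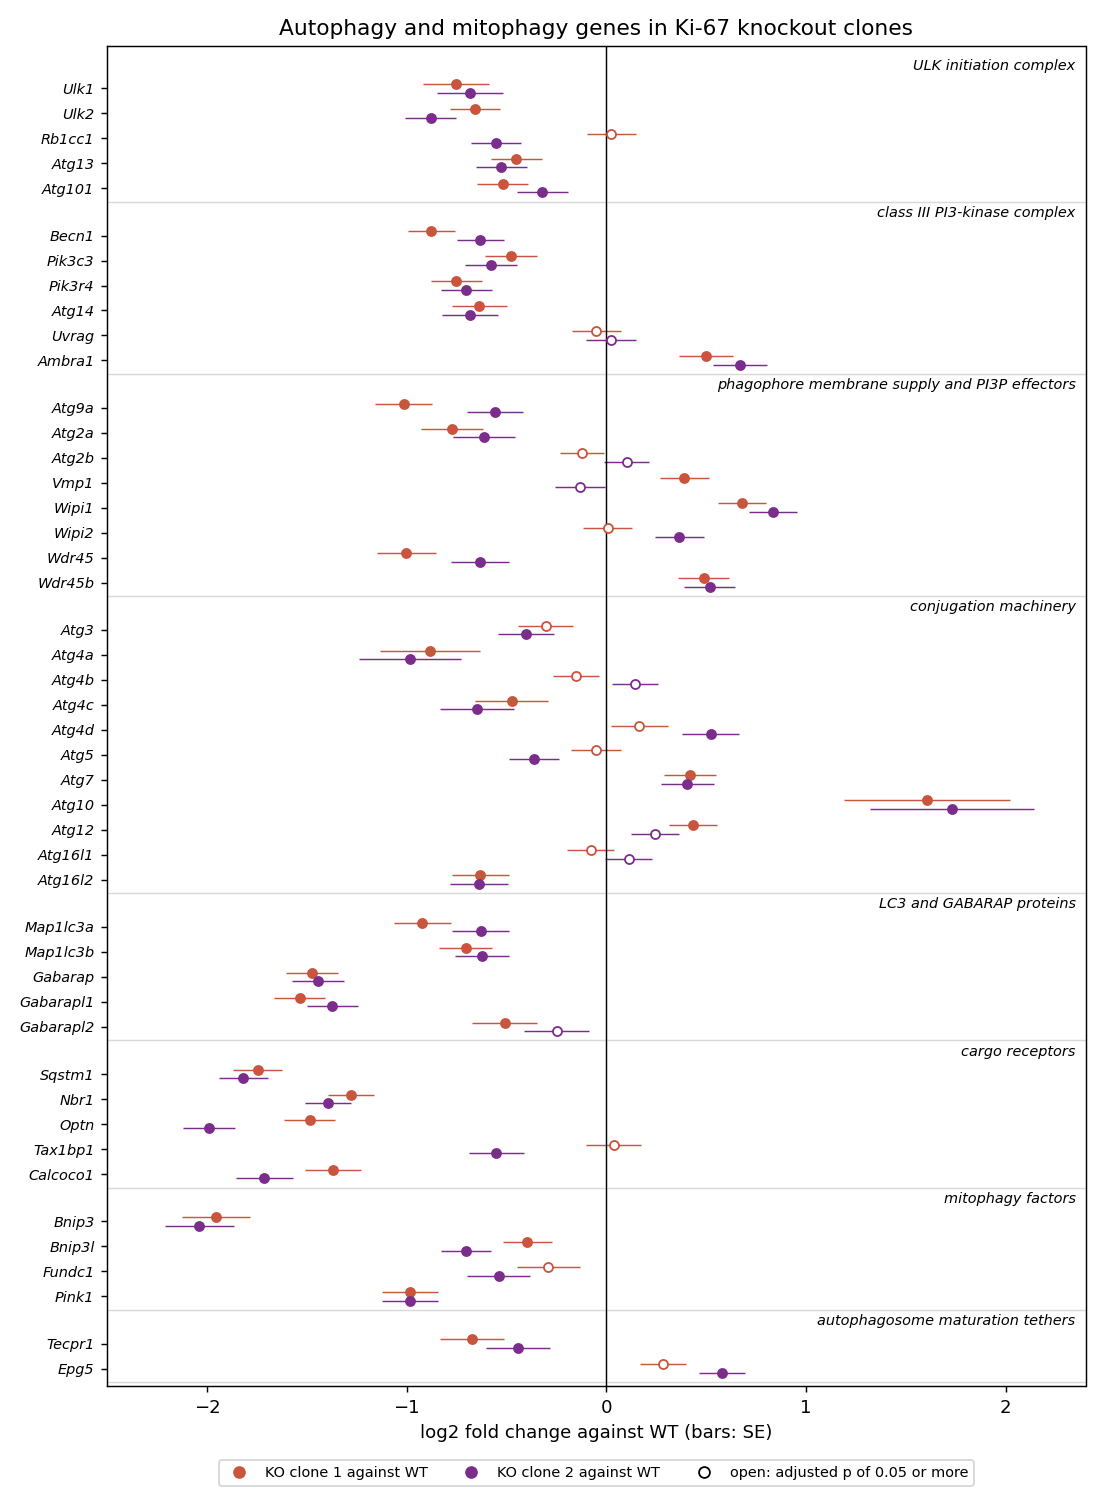
Log2 fold change of each of the 46 genes (rows, grouped by role) in KO clone 1 (orange) and KO clone 2 (purple) against WT, with bars for the SE of the fit and open points for an adjusted p of 0.05 or more. The points of the cargo receptors other than Tax1bp1, of Gabarap and Gabarapl1 and of Bnip3 lie below -1 in both clones, and only Atg10 lies above 1.

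Of the 5 genes of the ULK initiation complex, 4 were called lower in KO clone 1 and all 5 in KO clone 2. Of all genes tested, 26.2% and 28.2% were. The call of Atg101 in KO clone 2 (-0.32, adjusted p = 0.0451) held under only 5 of the 16 alternatives that set no minimum change, with an adjusted p of up to 0.268, and was lost when any library other than WT replicate 1 was left out. The fold changes ran from -0.75 to 0.02 in KO clone 1 and from -0.88 to -0.32 in KO clone 2. Ulk1 and Ulk2, which encode the kinases, fell by 0.72 ± 0.141 and 0.77 ± 0.108 (log2 ± SE, mean of both clones, adjusted p = 0.000405 and 1.71e-05). Atg13 and Atg101, the adaptor subunits, fell by 0.49 and 0.42 in the same comparison, with adjusted p of 0.00116 and 0.00401, the call of Atg101 being lost without WT replicate 2 (adjusted p = 0.0643). Rb1cc1, the scaffold that holds the complex together, was the gene of this complex that was called between the clones (KO clone 2 minus KO clone 1, -0.58, adjusted p = 0.00386). It read 60.7 and 65.5 CPM in KO clone 1 and 39.7 and 44.9 CPM in KO clone 2, against 66.2 and 58.2 CPM in WT. KO clone 2 lay below every other library, and KO clone 1 overlapped WT, with fold changes of -0.55 (adjusted p = 0.00146) in KO clone 2 and 0.02 (adjusted p = 0.888) in KO clone 1.

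Of the 6 genes of the class III PI3-kinase complex, 4 were called lower in each clone, 1 was called higher and 1 was not called. Of all genes tested, 26.2% were called lower in KO clone 1 and 28.2% in KO clone 2. Becn1, the Beclin subunit around which the complex is organised, read 74.2 and 74.1 CPM in KO clone 1 and 82.2 and 93.6 CPM in KO clone 2, against 129 and 143 CPM in WT. All 4 KO libraries lay below both WT libraries. Its log2 fold change was -0.88 ± 0.118 in KO clone 1 and -0.63 ± 0.118 in KO clone 2 (SE, adjusted p = 1.52e-05 and 0.0003). The lipid kinase gene Pik3c3, its regulatory partner Pik3r4 and Atg14, the subunit that directs the complex to autophagy, fell by 0.53, 0.73 and 0.66 for the mean of both clones (adjusted p = 0.00077, 2.92e-05 and 0.000204). Uvrag, which takes the place of Atg14 in the endosomal form of the complex, averaged 38.1 ± 1.61 CPM in KO clone 1 and 40.1 ± 1.70 CPM in KO clone 2, against 39.6 ± 3.33 CPM in WT (SD, n = 2 each), and was not called in either clone (adjusted p = 0.758 and 0.886). Ambra1, a Beclin-binding regulator, rose by 0.50 in KO clone 1 and 0.67 in KO clone 2 (adjusted p = 0.00592 and 0.000591), and it was not called in KO clone 1 once the median shift of all genes on its chromosome was subtracted (0.27, adjusted p = 0.113).

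The 8 genes that supply membrane or bind PI3P did not move one way. For the mean of both clones, 3 were called lower (37.5%) and 2 higher (25%), near the 29.4% and 26.6% of all genes tested. Wdr45, a PI3P-binding propeller protein, read 9.08 and 9.13 CPM in KO clone 1 and 12.1 and 11.4 CPM in KO clone 2, against 18.1 and 18.3 CPM in WT. The groups did not overlap, with KO clone 1 lowest and WT highest, and the log2 fold changes were -1.0 ± 0.148 and -0.63 ± 0.146 (adjusted p = 3.75e-05 in KO clone 1 and 0.0017 in KO clone 2). Its homologue Wdr45b was higher in both clones, by 0.49 and 0.52 (adjusted p = 0.00465 and 0.00277), and so was the related Wipi1, by 0.68 and 0.83 (adjusted p = 0.000213 and 2.79e-05). Wipi2, which recruits the LC3 conjugation complex, read 209 and 198 CPM in KO clone 1 and 281 and 240 CPM in KO clone 2, against 187 and 218 CPM in WT. Only KO clone 2 lay above WT, with a fold change of 0.36 (adjusted p = 0.0192), against 0.01 (adjusted p = 0.97) in KO clone 1. The call in KO clone 2 was lost under upper-quartile scaling (adjusted p = 0.0642), without KO clone 2 replicate 1 (0.16) and without WT replicate 1 (0.0849). Between the clones, Wipi2 was called higher in KO clone 2 (0.36, adjusted p = 0.0436). That call held under only 7 of the 16 alternatives that set no minimum change.

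Atg9a, the scramblase of the vesicles that seed the membrane, read 13.9 and 13.0 CPM in KO clone 1 and 20.3 and 16.7 CPM in KO clone 2, against 26.6 and 27.7 CPM in WT. The groups again did not overlap, and Atg9a fell by 1.01 in KO clone 1 and 0.56 in KO clone 2 (adjusted p = 2.32e-05 and 0.00323). Exons of other genes on the same strand overlap 31.8% of the exonic length of Atg9a and 24.7% of that of Wdr45, so reads there could be assigned to neither or to the other gene. Of the lipid transfer proteins that feed the growing membrane, Atg2a fell by 0.77 and 0.61 (adjusted p = 0.0006 and 0.0033, with 0.0719 in KO clone 2 without WT replicate 2 and 0.05 without KO clone 2 replicate 1), while Atg2b was not called in either clone (-0.12 and 0.10, adjusted p = 0.373 and 0.461). Vmp1, a scramblase of the endoplasmic reticulum, read 137 and 152 CPM in KO clone 1 and 109 and 92.6 CPM in KO clone 2, against 117 and 104 CPM in WT. KO clone 1 lay above WT, by 0.39 (adjusted p = 0.0147), and KO clone 2 overlapped it (-0.13, adjusted p = 0.385). Without KO clone 1 replicate 2 or WT replicate 2 the call in KO clone 1 was lost (adjusted p = 0.154 and 0.0648). Vmp1 was lower in KO clone 2 than in KO clone 1 (-0.52, adjusted p = 0.00663).

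The 11 genes of the conjugation machinery were evenly split for the mean of both clones, with a median log2 fold change of -0.0041. Called higher were 4 and lower 4 (36.4% each), where 26.6% and 29.4% of all genes tested were. Atg10, the enzyme that joins Atg12 to Atg5, read 1.72 and 1.44 CPM in KO clone 1 and 1.35 and 2.03 CPM in KO clone 2, against 0.394 and 0.590 CPM in WT. All 4 KO libraries were higher than both WT libraries. The log2 fold change was 1.61 ± 0.414 in KO clone 1 and 1.73 ± 0.413 in KO clone 2 (adjusted p = 0.00414 and 0.00218), from only 155 reads over the 6 libraries. Atg4a, a protease that processes LC3 and GABARAP precursors, read 2.03 and 2.16 CPM in KO clone 1 and 2.06 and 1.86 CPM in KO clone 2, against 4.44 and 3.42 CPM in WT. Every KO library was below both WT libraries, and the fold changes were -0.88 ± 0.250 and -0.98 ± 0.257 (adjusted p = 0.00776 and 0.00414), from 275 reads. With the DESeq2 Wald test the adjusted p was 0.0754 in KO clone 1 and 0.0503 in KO clone 2, and without KO clone 1 replicate 1 it was 0.0554 in KO clone 1.

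Of the other proteases of this family, Atg4c was lower in both clones (-0.47 and -0.65, adjusted p = 0.0385 and 0.00745), Atg4b was called in neither (-0.15 and 0.14, adjusted p = 0.292 and 0.313), and Atg4d was higher in KO clone 2 (0.52, adjusted p = 0.00529) and not called in KO clone 1 (0.16, adjusted p = 0.352), while the difference between the clones was not called (0.36, adjusted p = 0.0671). The calls of Atg4c in KO clone 1 and KO clone 2 and of Atg4d in KO clone 2 were lost without replicate 1 of the clone in question (adjusted p = 0.128, 0.0809 and 0.0589), and that of Atg4c in KO clone 1 also without its replicate 2 (0.184) or WT replicate 2 (0.134). Atg7, the activating enzyme of both conjugation systems, rose by 0.42 and 0.41 (adjusted p = 0.0141 and 0.0164). With its chromosome's median shift subtracted it was called in neither clone (adjusted p = 0.184 and 0.179), nor was it in KO clone 1 without replicate 1 or 2 of that clone (0.11 and 0.0709) or in KO clone 2 without its replicate 1 (0.0836). Atg3, which passes LC3 to the membrane lipid, was called lower in KO clone 2 only (-0.40, adjusted p = 0.0237, against -0.30, adjusted p = 0.0796 in KO clone 1), and the difference between the clones was not called (-0.10, adjusted p = 0.638). The call of Atg3 was lost without KO clone 2 replicate 1 or 2 or WT replicate 2 (adjusted p = 0.118, 0.064 and 0.0531). Among the parts of the complex that directs LC3 to the membrane, Atg16l1 was called in neither clone (-0.08 and 0.11, adjusted p = 0.604 and 0.449), while its homologue Atg16l2 fell by 0.63 and 0.64 (adjusted p = 0.00162 and 0.00143). Atg12 was called higher in KO clone 1 (0.43, adjusted p = 0.00684) and Atg5 lower in KO clone 2 (-0.36, adjusted p = 0.0236), with values of 0.24 (adjusted p = 0.103) and -0.05 (adjusted p = 0.764) in the other clone. Neither gene was called between the clones (-0.19, adjusted p = 0.253 for Atg12 and -0.31, adjusted p = 0.0775 for Atg5). Atg12 was not called without KO clone 1 replicate 1 (adjusted p = 0.0872), nor Atg5 without KO clone 2 replicate 1, WT replicate 2 or KO clone 1 replicate 2 (adjusted p = 0.165, 0.108 and 0.0528). With that chromosome shift subtracted, Atg5 was at -0.03 (adjusted p = 0.856) in KO clone 2 and at 0.34 (adjusted p = 0.0376) in KO clone 1.

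The LC3 and GABARAP genes were lower together. All 5 were called lower in KO clone 1 and 4 in KO clone 2, where 26.2% and 28.2% of all genes tested were. Gabarap, on chromosome 11 from 69991143 to 69994951 on the plus strand, read 102 and 85.3 CPM in KO clone 1 and 105 and 86.4 CPM in KO clone 2, against 266 and 253 CPM in WT. The clones overlapped each other and lay far below WT, with log2 fold changes of -1.47 ± 0.130 and -1.44 ± 0.130 (adjusted p = 1.5e-07 and 1.71e-07). Gabarapl1, a close homologue of Gabarap, read 24.4 and 22.4 CPM in KO clone 1 and 25.3 and 27.0 CPM in KO clone 2, against 72.7 and 63.1 CPM in WT. The KO libraries were again all below WT, by 1.53 ± 0.128 and 1.37 ± 0.128 on the log2 scale (adjusted p = 8.48e-08 and 2.44e-07). Map1lc3a and Map1lc3b, which encode LC3 proteins, fell by 0.92 and 0.70 in KO clone 1 (adjusted p = 5.95e-05 and 0.000388) and by 0.63 and 0.62 in KO clone 2 (adjusted p = 0.00142 and 0.00101). Gabarapl2 fell by 0.51 in KO clone 1 (adjusted p = 0.0166) and was not called in KO clone 2 (-0.25, adjusted p = 0.213), and the difference between the clones was not called (0.26, adjusted p = 0.256). Its call in KO clone 1 was lost without KO clone 1 replicate 1 or WT replicate 1 (adjusted p = 0.158 and 0.0716), and with the chromosome shift subtracted Gabarapl2 was called in KO clone 2 (-0.62, adjusted p = 0.00519).

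Per kilobase of exon (RPKM, CPM divided by exonic length), the summed level of these 5 genes was 91.2 and 79.9 RPKM in KO clone 1 and 97.2 and 86.1 RPKM in KO clone 2, against 220 and 208 RPKM in WT. Gabarap made up 57.9% to 60.5% of the sum in KO clone 1 and 54.4% to 58.5% in KO clone 2, against 65.7% to 65.9% in WT. It was the largest contributor in every library.

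Of the 5 cargo receptors, 4 fell by more than 1 on the log2 scale in each clone. Of the 13755 genes tested, 2633 in KO clone 1 and 2844 in KO clone 2 were called with such a change in either direction. In GRCm38 (GENCODE M21), Sqstm1 lies on chromosome 11 from 50199366 to 50210827 on the minus strand. Sqstm1, which encodes the ubiquitin-binding receptor p62, read 593 and 508 CPM in KO clone 1 and 525 and 522 CPM in KO clone 2, against 1937 and 1756 CPM in WT. The KO libraries spanned a narrow range far below WT, and the log2 fold changes were -1.75 ± 0.123 and -1.82 ± 0.123 (adjusted p = 1.28e-08 and 6.68e-09). Nbr1, a receptor that works with p62 on ubiquitinated aggregates and peroxisomes, read 96.9 and 89.8 CPM in KO clone 1 and 81.1 and 91.1 CPM in KO clone 2, against 228 and 225 CPM in WT. The clones overlapped each other and not WT (-1.28 ± 0.116 and -1.39 ± 0.116, adjusted p = 2.02e-07 and 7.03e-08).

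Optn, which encodes optineurin, a receptor for bacteria and damaged mitochondria, read 25.4 and 21.8 CPM in KO clone 1 and 16.5 and 16.7 CPM in KO clone 2, against 64.1 and 67.9 CPM in WT. The groups were ordered with KO clone 2 lowest and WT highest and did not overlap (-1.49 ± 0.126 and -1.99 ± 0.131, adjusted p = 1.04e-07 in KO clone 1 and 4.65e-09 in KO clone 2). Calcoco1, a receptor for the endoplasmic reticulum and Golgi, read 19.0 and 15.7 CPM in KO clone 1 and 15.0 and 12.5 CPM in KO clone 2, against 44.0 and 45.7 CPM in WT. Every KO library was below both WT libraries (-1.37 ± 0.141 and -1.71 ± 0.145, adjusted p = 8.29e-07 and 8.24e-08).

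Tax1bp1, a receptor for ubiquitinated cargo that binds LC3 proteins, followed another pattern. It read 115 and 122 CPM in KO clone 1 and 66.2 and 91.1 CPM in KO clone 2, against 119 and 112 CPM in WT. KO clone 1 overlapped WT (0.04, adjusted p = 0.841) and KO clone 2 lay below it (-0.55 ± 0.139, adjusted p = 0.00322), a call lost without KO clone 2 replicate 1 (-0.33, adjusted p = 0.0617). The difference between the clones was called (-0.59, adjusted p = 0.00657). Per length, the 5 receptor genes summed to 212 and 185 RPKM in KO clone 1 and 182 and 184 RPKM in KO clone 2, against 647 and 593 RPKM in WT. Sqstm1 made up 81.7% to 83.2% of that sum in KO clone 1 and 84.3% to 86.0% in KO clone 2, against 88.2% to 89.2% in WT.

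**Figure D2:**
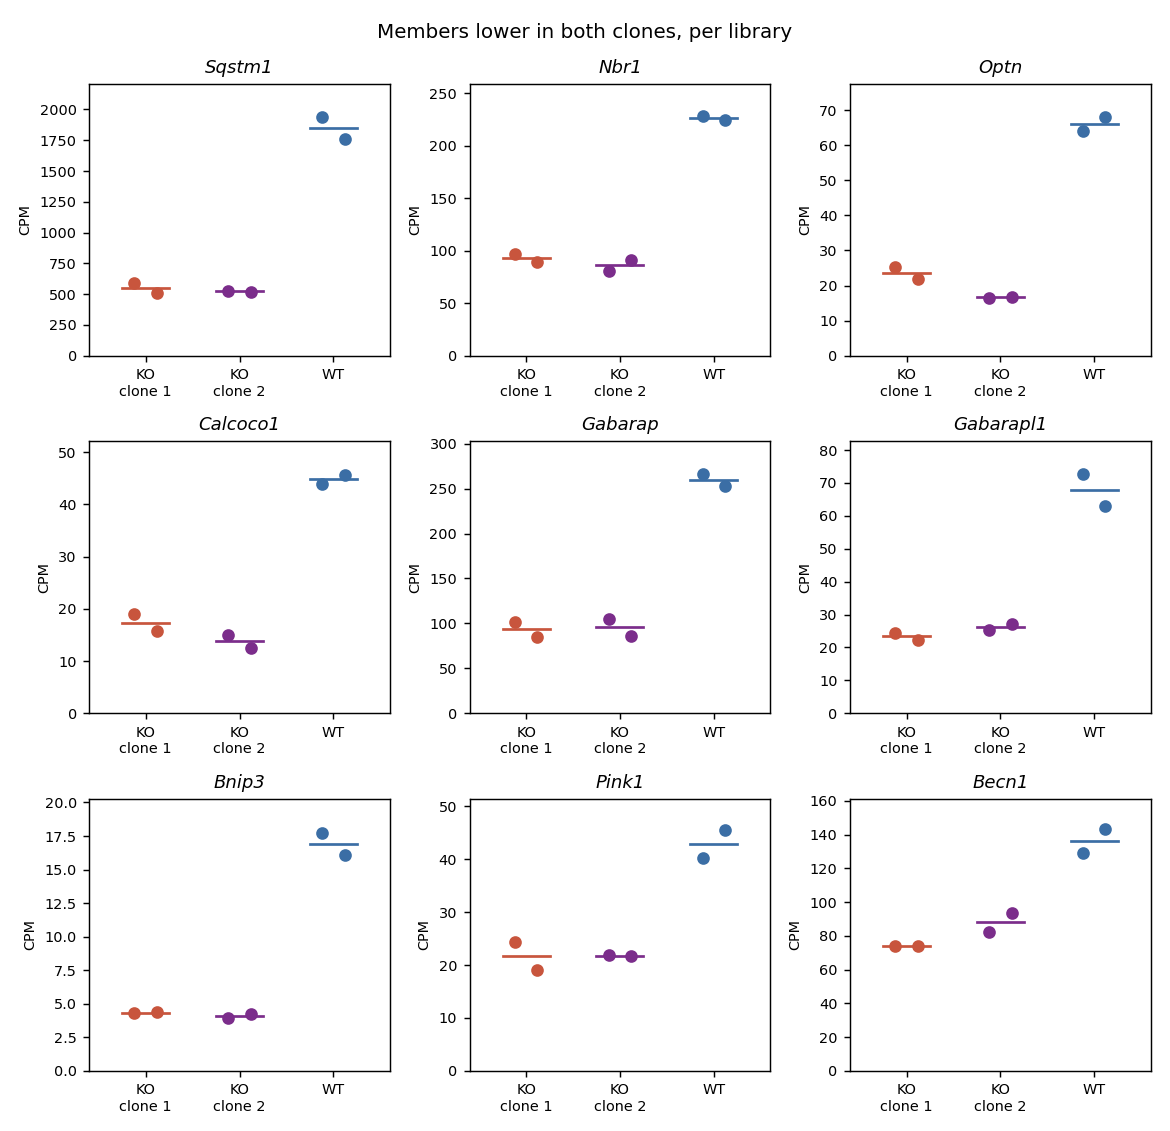
CPM in each library (points) with the group mean (line) for 9 genes called lower in both clones, with KO clone 1, KO clone 2 and WT from left to right and each axis starting at 0. In every panel all 4 KO points lie below both WT points; for Sqstm1 they lie between 508 and 593 CPM and WT at 1756 and 1937 CPM.

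All 4 mitophagy factors were called lower for the mean of both clones, 3 of the 4 in KO clone 1 and all 4 in KO clone 2. Of all genes tested, 29.4%, 26.2% and 28.2% were called lower in these comparisons. Bnip3, an outer mitochondrial membrane receptor that binds LC3 proteins directly, read 4.28 and 4.41 CPM in KO clone 1 and 3.95 and 4.23 CPM in KO clone 2, against 17.8 and 16.1 CPM in WT. The 4 KO libraries lay within a narrow range and did not overlap WT. The gene lies on chromosome 7 from 138890836 to 138909519 on the minus strand. Its log2 fold changes, -1.96 ± 0.171 and -2.04 ± 0.174 (adjusted p = 1.37e-07 and 9.23e-08), were the lowest of the 46 genes in each clone. Bnip3l, the homologous receptor also called NIX, had log2 fold changes of -0.40 in KO clone 1 and -0.70 in KO clone 2 (adjusted p = 0.0135 and 0.000185). In KO clone 1 Bnip3l was not called after subtraction of the chromosome shift (-0.18, adjusted p = 0.256), nor without KO clone 1 replicate 1 or 2 or WT replicate 1 (adjusted p = 0.118, 0.0769 and 0.0711).

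Pink1, the kinase that accumulates on depolarised mitochondria, read 24.3 and 19.2 CPM in KO clone 1 and 21.8 and 21.6 CPM in KO clone 2, against 40.2 and 45.5 CPM in WT. The clones overlapped each other and lay below WT by the same amount (-0.98 ± 0.139 and -0.98 ± 0.140, adjusted p = 2.4e-05 and 2.22e-05). Fundc1, a mitophagy receptor linked to hypoxia, was called lower in KO clone 2 (-0.54, adjusted p = 0.00948) and not in KO clone 1 (-0.29, adjusted p = 0.136), and the difference between the clones was not called (-0.25, adjusted p = 0.262). Fundc1 was not called in KO clone 2 after subtraction of the chromosome shift (adjusted p = 0.0742), nor without KO clone 2 replicate 1 or 2 or WT replicate 1 (adjusted p = 0.079, 0.0578 and 0.0675), and without WT replicate 2 it was called in KO clone 1 (-0.44, adjusted p = 0.0413). Per length, the 4 genes summed to 27.6 and 27.7 RPKM in KO clone 1 and 24.3 and 24.5 RPKM in KO clone 2, against 47.5 and 44.8 RPKM in WT.

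**Figure D3:**
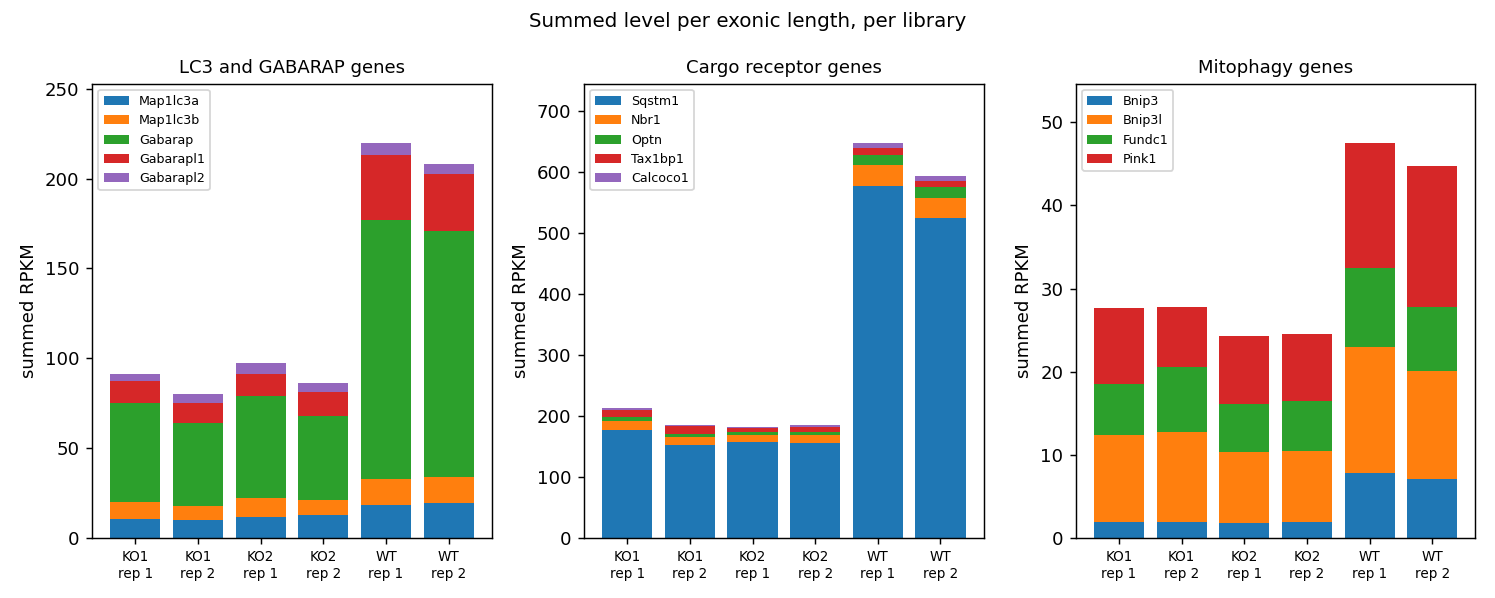
Summed RPKM of the LC3 and GABARAP, cargo receptor and mitophagy genes in each library, stacked by gene, with KO1 and KO2 for KO clones 1 and 2 and each axis starting at 0. The sums were 79.9 to 97.2 RPKM in the KO libraries against 208 and 220 in WT for LC3 and GABARAP, 182 to 212 against 593 and 647 for the receptors, and 24.3 to 27.7 against 44.8 and 47.5 for mitophagy.

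The 2 tethers that act on finished autophagosomes moved in opposite directions for the mean of both clones. Epg5, which links autophagosomes to late endosomes and lysosomes, read 87.0 and 80.7 CPM in KO clone 1 and 102 and 104 CPM in KO clone 2, against 66.3 and 71.6 CPM in WT. KO clone 2 lay above KO clone 1, which lay above WT. The rise was called in KO clone 2 (0.58 ± 0.115, adjusted p = 0.000524) and missed the threshold in KO clone 1 (0.28 ± 0.115, adjusted p = 0.0511), and the difference between the clones was not called (adjusted p = 0.0687). Tecpr1, a tether that binds Atg5 and Atg12, fell by 0.67 and 0.44 (adjusted p = 0.00229 and 0.0275). Without WT replicate 2 neither call of Tecpr1 held (-0.37 and -0.13, adjusted p = 0.0575 and 0.491), and that in KO clone 2 was also lost without KO clone 2 replicate 1 or 2 (adjusted p = 0.11 and 0.175). Epg5 was called in KO clone 1 without WT replicate 2 (0.34, adjusted p = 0.035).

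Levels of different genes were compared per length. Sqstm1 was the most abundant of the 46 in every group, at 164 ± 17.8 RPKM in KO clone 1 and 156 ± 0.746 RPKM in KO clone 2, against 550 ± 38.2 RPKM in WT (SD, n = 2 each), followed by Gabarap at 50.7 ± 6.27 and 51.8 ± 7.07 RPKM, against 141 ± 5.11 RPKM in WT. In WT the next were Gabarapl1 and Nbr1, at 33.7 ± 3.36 and 33.0 ± 0.378 RPKM, whose difference was within their spread. Both KO clones had Vmp1 in the place after Gabarap, at 37.4 ± 2.62 RPKM in KO clone 1 and 26.1 ± 2.96 RPKM in KO clone 2, the second of which did not differ from Wipi2 (24.8 ± 2.75 RPKM) beyond its spread. The lowest levels were those of Atg10 and Atg4a, at 0.919 and 0.786 RPKM in KO clone 1, 0.985 and 0.736 RPKM in KO clone 2, and 0.287 and 1.48 RPKM in WT. The median level of the 46 genes was 6.13 RPKM in KO clone 1 and 5.56 RPKM in KO clone 2, against 7.16 RPKM in WT.

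In the main fit, the 2 clones were called different in few of these genes, but the number depended on the libraries fitted. The share of all genes is given for the main fit only. Of the 46, 6 were called between KO clone 2 and KO clone 1 (13%), 2 higher and 4 lower in KO clone 2, where 23.5% of all genes tested were called, 12.1% higher and 11.4% lower. Lower in KO clone 2 were Tax1bp1 (-0.59, adjusted p = 0.00657), Rb1cc1 (-0.58, adjusted p = 0.00386), Vmp1 (-0.52, adjusted p = 0.00663) and Optn (-0.51, adjusted p = 0.0116). Atg9a (0.45, adjusted p = 0.0304) and Wipi2 (0.36, adjusted p = 0.0436) were higher in it. The libraries of the 2 clones did not overlap for any of the 6. As the 6 were picked by that call, this adds no support to it. The median log2 difference over the 46 genes was 0.03. The number called was 3 and 2 without KO clone 1 replicate 1 and 2, 1 and 3 without KO clone 2 replicate 1 and 2, and 12 without either WT library, and each of the 6 calls was lost under at least 1 alternative.

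**Figure D4:**
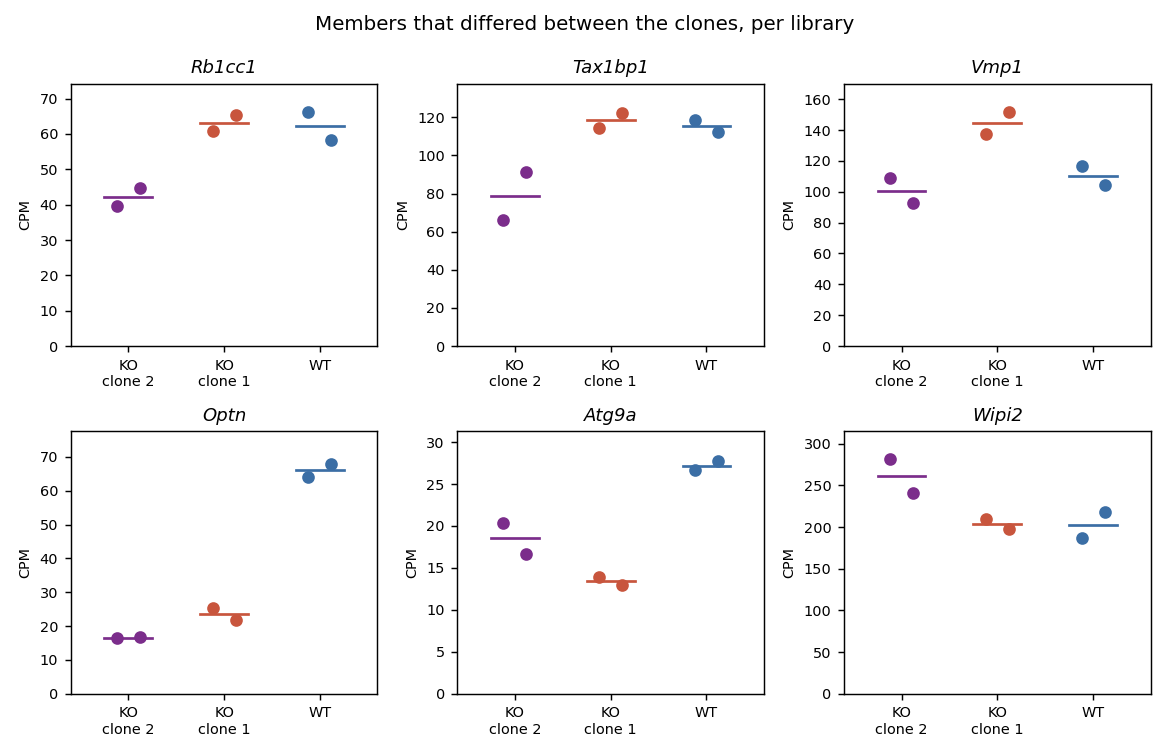
CPM in each library (points) with the group mean (line) for the 6 genes called between the clones, with KO clone 2, KO clone 1 and WT from left to right and each axis starting at 0. The points of the 2 clones do not overlap in any panel; Rb1cc1, for example, read 39.7 and 44.9 CPM in KO clone 2 and 60.7 and 65.5 CPM in KO clone 1.

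A wider list of 84 genes that control or complete autophagy, none of them among the 46, was examined in the same fit. Of these, 78 were tested and 47 were called for the mean of both clones (60.3%), 15 higher and 32 lower, with a median log2 fold change of -0.16, where 56% of all genes were called and the median was -0.02. In both clones, 22 of the 78 were lower (28.2%) and 7 higher (8.97%), against 20% and 17.9% of all genes tested. For the mean of both clones, where 29.4% of all genes tested were lower and 26.6% higher, 10 of the 18 genes for fusion of autophagosomes with lysosomes were called lower and 1 higher, and 4 of the 20 mitophagy regulators tested were called lower and 7 higher.

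From this wider list, Lamp2, a lysosomal membrane protein needed for fusion, averaged 109 ± 6.69 CPM in KO clone 1 and 85.8 ± 8.64 CPM in KO clone 2, against 268 ± 42.8 CPM in WT (SD, n = 2 each), a log2 fold change of -1.47 for the mean of both clones (adjusted p = 1.2e-08). Plekhm1, an adaptor for fusion, fell by 1.14 (adjusted p = 5.25e-07) in that comparison. Flcn, the folliculin that acts on Rag GTPases at the lysosome, fell by 1.31 (adjusted p = 1.88e-08). Rragd, the gene of Rag GTPase D, had 1 read over the 4 KO libraries and 326 reads over both WT libraries, and its ratio, WT over KO, was 1024 with an exact 95% interval of 183 to 40586 that covers counting error only.

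Tbk1, a kinase that phosphorylates Optn and p62, fell by 1.02 (adjusted p = 1.12e-06), and averaged 28.8 ± 3.77 CPM in KO clone 1 and 29.6 ± 1.48 CPM in KO clone 2, against 59.2 ± 4.91 CPM in WT. Ccpg1, a receptor for the endoplasmic reticulum, averaged 0.289 ± 0.0274 and 0.414 ± 0.0859 CPM in KO clones 1 and 2, against 3.12 ± 0.325 CPM in WT (-3.12, adjusted p = 2.88e-07). Among genes that rose were Phb2, an inner mitochondrial membrane receptor for LC3 (0.83, adjusted p = 4.48e-06), and Usp10, a deubiquitinase that stabilises Beclin (0.96, adjusted p = 1.26e-06). Tomm7, which stabilises Pink1 at the outer mitochondrial membrane, fell by 0.66 (adjusted p = 3.8e-05), and Zfyve1, which encodes a PI3P-binding marker of nascent autophagosomes, by 1.08 (adjusted p = 6.14e-07).

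Promoter sequences of 300 bases (250 before to 50 after the RefSeq start) were available for 37 of the 46 genes, as 43 promoters, including 25 promoters of 22 of the 26 genes lower in both clones. Motifs were searched on both strands: ACGTG, the core of hypoxia response elements, CACGTG, an E-box that contains it and that TFEB and related factors can bind, TGACNNNGC, an antioxidant response element core, and GTAAACA, a FoxO-type element. ACGTG was found in 36% of the promoters of the genes lower in both clones and in 37.2% of those of the 46 genes, against 25.6% for genes tested and 19.6% of all 32851 promoters. CACGTG was found in 8%, 11.6%, 10.0% and 7.15% of the same sets. TGACNNNGC was found in 12%, 16.3%, 14.4% and 12.4%. GTAAACA was in none of the 43 promoters, against 2.5% of those of genes tested. These matches describe the sequences and do not show a site or a cause, and the start sites annotated by RefSeq may not be those used in 4T1 cells.

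Several values rest on shared or ambiguous sequence. Atg4d had 58.2% of its reads on the opposite strand, where Kri1 is annotated, and more reads there than on its own strand in 5 of the 6 libraries. Atg7 had 26.7% there. In the other 44 genes the opposite strand held under 2.5%. The pseudogene copies Atg4a-ps and Bnip3l-ps had 4 reads each, against 275 for Atg4a and 4606 for Bnip3l. Of the 46 genes, 8 lie on chromosome 11, Sqstm1, Nbr1, Gabarap and Becn1 among them, where the median log2 shift of all genes was -0.22 in KO clone 1 and -0.12 in KO clone 2. After each chromosome's median shift was removed, 26 of the 27 genes called lower in KO clone 1 were still called lower, and 26 of the 31 in KO clone 2, where Gabarapl2 was called in addition.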

How the data were processed

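Per the labels' protocols, Trizol was used to extract total RNA of 4T1 cells, ribosomal RNA was removed, and the libraries kept the strand. Per the submitters' processing notes, FastQC, STAR 2.6.0c and GRCm38 were used. The authors deposited 6 tables of unnormalized read counts per gene, with unstranded, forward and reverse columns. The reverse column held 92.3% to 95.7% of the stranded gene reads and was used. Lines that name no gene (unmapped 8.49% to 14.0% of reads, several places 24.7% to 29.3%, outside genes 9.21% to 13.5%, ambiguous 1.90% to 2.74%) were left out. The annotation used for counting is not given in the sources used here. GENCODE mouse release 21 (GRCm38) gave symbols, exonic lengths and coordinates for 54079 of the 54146 IDs, and 67 had no match.

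Genes were filtered with filterByExpr, scaled by TMM and tested with edgeR 4.0.16 in R 4.3.3 in 1 quasi-likelihood fit with robust dispersion over all 6 libraries (3 residual degrees of freedom, common biological coefficient of variation 10.3%). CPM used the scaled library sizes. Counts were simulated from the WT means and the fitted dispersions, with 200 genes above 1 CPM in WT changed alike in both clones. For the mean of both clones against WT (13213 genes tested), the test recovered 61.2% of 67 changes of 1.5-fold. It recovered 92.5% of 67 of 2-fold and 98.5% of 66 of 4-fold, and 8 of its 176 calls were false. Far more genes were called in the data (56% of all genes tested), so these rates need not hold there. DESeq2 1.42.0 and limma 3.58.1 served as alternatives, with other scalings and filters, unstranded counts, a replicate block, a minimum change of 1.5-fold, each library left out, chromosome shifts removed and only the groups compared. Chi-square per degree of freedom between replicates was 19.4 in KO clone 1, 26.6 in KO clone 2 and 82.2 in WT. This is beyond sampling noise, so no library was treated as a copy. The fit estimated the spread over the 3 groups together, although by this measure the WT replicates differed most. Intervals and the floor of 3 counts cover counting error only.

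The 46 genes and all lists were chosen with earlier results of these data known. Values of every library are given for genes that were called the same way in each clone and changed by at least 0.8 (log2, mean of both clones), for genes called between the clones, and for the gene with the smallest adjusted p of a role with neither. From each group of the wider list, 2 genes were named, those of smallest adjusted p that were called the same way in each clone.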

Additional observations from a re-analysis of the deposited data

Results flagged for a closer look

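In the main edgeR test of KO clone 2 against KO clone 1, 6 of the 46 genes were called (13%), against 23.5% of all genes tested. Each of the 6 calls was lost under at least 1 alternative. They held under 7 (Wipi2) to 15 (Tax1bp1) of the 16 alternatives that set no minimum change. The log2 differences, KO clone 2 minus KO clone 1, were -0.59 for Tax1bp1, -0.58 for Rb1cc1, -0.52 for Vmp1, -0.51 for Optn, 0.45 for Atg9a and 0.36 for Wipi2. In Rb1cc1, Tax1bp1, Vmp1 and Wipi2 one of the clones overlapped WT, while Optn and Atg9a were below WT in both clones to different degrees.

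Reads on the strand opposite to a gene entered only the alternative with unstranded counts. They made up 58.2% of the reads of Atg4d, where Kri1 is annotated on that strand. For Atg7 they made up 26.7%, and no gene is annotated there. Libraries differed in size, with 17103941 to 22658499 gene reads in KO and 10428970 and 16852152 in WT. Raw counts therefore cannot be compared between groups as levels. Unscaled, the opposite-strand reads of Atg7 numbered 190 and 184 in KO clone 1, 159 and 175 in KO clone 2, and 91 and 126 in WT. Their source was not tested.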

How the results depend on the processing

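Counts under the alternatives are for the 46 genes only. The share of all genes called under the same alternative is not given, so these counts are not set against a background. With a minimum change of 1.5-fold, 13 of the 46 genes were called in KO clone 1 (1 higher, 12 lower). In KO clone 2, 11 were called (2 higher, 9 lower), and for the mean of both clones 9 were (1 higher, 8 lower). Between the clones that edgeR test called 0, and 0 had an unadjusted p under 0.05, against 13 with no minimum, while DESeq2 and limma-voom with no minimum called 5 each. Apart from that minimum, 22 of the 34 calls in KO clone 1, 26 of 39 in KO clone 2 and 28 of 38 for their mean were kept under every alternative. With 1 library left out, which lets a single remaining library take its spread from the other groups, the number called was 27 to 34 in KO clone 1, 28 to 38 in KO clone 2 and 32 to 38 for their mean, and the number higher in KO clone 2 was 5 to 8, lowest without KO clone 2 replicate 1.

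Between the clones, the number called was 1 to 12 with 1 library left out (higher 0 to 6, lower 1 to 6), lowest without KO clone 2 replicate 1 and highest without either WT library, and 11 (5 higher) with only the clones fitted. The number higher was 1 under upper-quartile scaling, the DESeq2 Wald test, limma-voom, no count filter and chromosome shifts removed.

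Atg5 in KO clone 1 was -0.05, and 0.34 (adjusted p = 0.0376) with chromosome shifts removed. The scalings moved the median of all genes by under 0.1 log2.

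The labels do not say whether replicate numbers pair the libraries. Replicate differences correlated at -0.0011, -0.229 and 0.0727 between pairs of groups, which cannot settle it. With a replicate block, 33, 38 and 37 genes were called in KO clone 1, KO clone 2 and their mean, and 5 (1 higher) between the clones. Apart from the minimum change, the causes of these shifts were not tested. Low counts limit Atg10 and Atg4a, with 155 and 275 reads in all.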
